A study of Rattus norvegicus with 8 samples.

Results

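The genes that make microRNAs and carry them to their targets were followed in oligodendrocyte-lineage cells of the postnatal rat brain. The set holds 10 genes by name: Drosha, Dgcr8, Xpo5, Dicer1, Tarbp2, Prkra, Ago1, Ago2, Ago3 and Ddx20. A probe set, the group of short probes by which the array reads a transcript, was taken as a member where the platform's gene annotation gave it 1 of these symbols and no other. This gave 15 of 31042 probe sets, for 9 of the 10 genes. Ago2 was the symbol of 0 probe sets and was not analysed here. Drosha and Ago1 had 3 probe sets each, Xpo5 and Dicer1 had 2 each, and the others had 1.

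The samples were A2B5+ cells and GalC+ cells, isolated by flow cytometry from the whole brain of rat pups at postnatal day 7. A2B5 is a ganglioside epitope of glial progenitors, and the labels name the A2B5+ cells as oligodendrocyte progenitors. GalC is galactocerebroside, a lipid of oligodendrocytes and myelin, and the labels name the GalC+ cells as oligodendrocytes. No strain, genotype or treatment was stated for either population. Each population had 4 biological replicates, each of them 1 pooled litter of 10 pups on 1 Affymetrix array. The question was which transcripts differ between these stages. Each value is a ratio, the signal of a probe set over the median of that probe set's 8 signals. They show differences between arrays but not how abundant a transcript is, so the members cannot be ranked by level.

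A microRNA starts as a hairpin within a longer transcript. The Microprocessor, made of the RNase III enzyme Drosha and the RNA-binding protein Dgcr8, cuts the hairpin out in the nucleus, and exportin 5 (Xpo5) carries it to the cytoplasm. There Dicer1, a further RNase III enzyme, trims it to a short duplex with the help of the double-stranded RNA binding proteins Tarbp2 or Prkra. An Argonaute protein (Ago1 to Ago4) keeps a single strand of the duplex and is guided by it to target transcripts. Ddx20, also called Gemin3, is an RNA helicase found with Argonautes and in the SMN complex, which assembles the particles of the splicing machinery. Loss of Dicer1 from the oligodendrocyte lineage is known to impair differentiation and myelination.

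In these cells the machinery did not move one way. Of the 15 member probe sets, 2 were higher in GalC+, those of Ago3 and 1 of the 2 of Dicer1. Another 3 were lower, those of Ddx20, Prkra and 1 of the 3 of Drosha, and 10 did not pass the test (limma, adjusted p under 0.05 over all probe sets). That is 33.3% of the members, where 26.8% of all 31042 probe sets passed, 13.5% as higher and 13.2% as lower. The 4 A2B5+ values did not overlap the 4 GalC+ values in 9 member probe sets, 4 of them higher and 5 lower in GalC+, where this held for 29.0% of all probe sets. With 1 averaged value per gene, 3 of the 9 genes were higher (Ago3, Dicer1 and Tarbp2) and 2 were lower (Ddx20 and Prkra), where 35.2% of 14217 genes passed. The differences were small. The largest, that of Ago3, was 0.48 on the log2 scale, and its size was equal to or above that of 82.6% of all probe sets. The median member difference was -0.14, beside 0.04 over all probe sets.

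**Figure D1:**
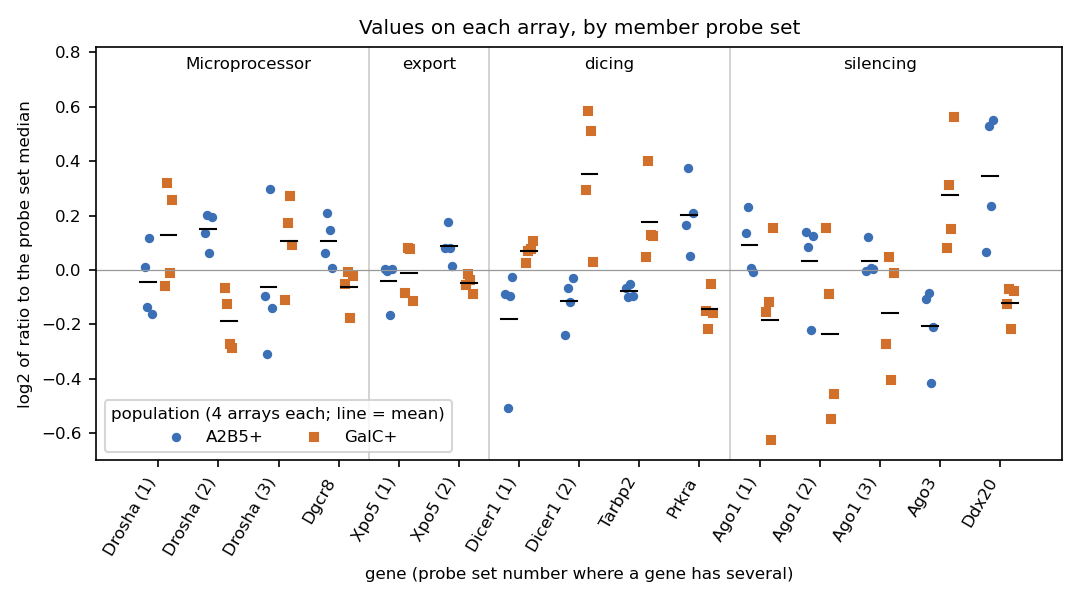
The log2 ratio of each of the 15 member probe sets (vertical axis, relative to the probe set's median over the 8 arrays) is plotted by gene for 4 A2B5+ arrays (circles) and 4 GalC+ arrays (squares), with a line at each mean. Ago3 and both Dicer1 probe sets lay higher in every GalC+ array, Prkra and Ddx20 lay lower, and the 3 Drosha probe sets did not go the same way.

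Other features of these sorts belong beside the members. Of 21 probe sets of 12 myelin markers, 20 were higher in GalC+, among them all those of Mbp and Mog. Of 10 probe sets of 7 progenitor markers, 6 were lower in GalC+ and 4 did not pass. The lower ones were of 4 genes, Nxph1 (each of its probe sets), Sox11, Pdgfra and Cspg5. Those of Ptprz1, C1ql1 and Cspg4 (0.01 on the log2 scale) did not pass. Macrophage markers were higher too, in 15 of 18 probe sets. Their mean log2 ratio per array was -1.77 to -1.02 in A2B5+ and 0.32 to 0.89 in GalC+. The largest of these differences were of Cd163 (5.41), F13a1 (5.34), Ccr1 (4.85) and Clec10a (4.61), beside 4.42 for Mog. Cx3cr1 (-0.14), Itgam (0.73) and 1 probe set of Aif1 (0.08) did not pass. Neuron markers were lower in 11 of 18 probe sets, with array means of 0.24 to 0.40 in A2B5+ and -0.85 to -0.22 in GalC+. Cell cycle genes were lower in 11 of 12, with array means of 0.18 to 0.63 and -0.44 to -0.28. Of 16 probe sets of vessel and fibroblast markers 6 were higher and 0 lower. The higher ones were of Dcn (1.78), Acta2 (1.42), Rgs5 (1.21), Col1a1 (1.22 and 0.74) and Pdgfrb (0.77, its others did not pass). No probe set of Pecam1, Cldn5, Flt1, Kdr or Tek passed, so the mean of this list joins genes that passed with genes that did not. Of 14 probe sets of astrocyte markers 0 were higher and 1 lower. The array means of the astrocyte and vessel lists overlapped between the populations, while those of the macrophage, neuron and cell cycle lists did not; the part of these lists in the member differences was not tested. In such pooled cells, fewer cells of a type and less RNA per cell cannot be told apart. The median ratio per array was 0.979 to 1.03, and the number of arrays limits the precision.

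Drosha, the catalytic subunit of the Microprocessor, gave no single answer. In its second probe set (1376273_at) the A2B5+ ratios were 1.099, 1.15, 1.045 and 1.146, and the GalC+ ratios were 0.955, 0.916, 0.828 and 0.819. Every GalC+ array was below every A2B5+ array, and the log2 difference of -0.34 ± 0.08 (SE, n = 4 and 4) passed the test (limma, adjusted p = 0.00998). The first (1375736_at) and the third (1398416_at) probe sets both leaned the other way, at 0.17 ± 0.11 and 0.17 ± 0.13, with overlapping populations (adjusted p = 0.286 and 0.389). Averaged over the 3 probe sets, the difference of Drosha was 0.00 ± 0.08, so a fall of the gene as a whole was not shown. Which transcripts each probe set reads cannot be told from the values, and the difference among the 3 was not tested.

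Dgcr8, the partner that grips the hairpin, read 1.045, 1.157, 1.107 and 1.005 in A2B5+ and 0.966, 0.995, 0.886 and 0.986 in GalC+. The populations did not overlap, by a narrow margin of 1.005 against 0.995. The difference was -0.17 ± 0.08 with a 95% interval that just excluded zero at its upper end, but it did not pass once adjusted (limma, adjusted p = 0.132).

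The Microprocessor is known to cut hairpins in the transcript of Dgcr8 itself, and RefSeq places a microRNA within that gene, on the same strand. Its mature forms, on chromosome 11 of GRCr8, are shown because they mark such a hairpin inside a member; capitals mark the seed, bases 2 to 8, the stretch that pairs with targets.
rno-miR-1306-5p: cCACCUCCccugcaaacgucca
rno-miR-1306-3p: gACGUUGGcucugguggugaug
The seeds of the arms differ. The array values used here carry no level for either arm.

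For the export receptor Xpo5 no difference passed the test. Its first probe set (1385167_at) differed by 0.03 ± 0.08, with a 95% interval of -0.15 to 0.21, and the sign turned when A2B5+ replicate 3 was left out (-0.011). In the second (1388956_at) the A2B5+ ratios were 1.059, 1.131, 1.058 and 1.01 and the GalC+ ratios 0.962, 0.99, 0.975 and 0.94. These did not overlap, yet the difference of -0.14 ± 0.07 (interval -0.29 to 0.01) did not pass (limma, adjusted p = 0.163).

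Dicer1 leaned higher in GalC+ in both probe sets. In the second (1398643_at) the ratios were 0.848, 0.955, 0.921 and 0.98 in A2B5+ and 1.225, 1.499, 1.425 and 1.02 in GalC+. GalC+ replicate 4 lay just above the highest A2B5+ array, and the other GalC+ arrays were well above it. The transcript was 1.38-fold higher (log2 0.47 ± 0.12, limma, adjusted p = 0.0168). Without A2B5+ replicate 1 the adjusted p was 0.0510, and without GalC+ replicate 4 it was 0.00234.

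The first Dicer1 probe set (1394715_at) read 0.941, 0.703, 0.935 and 0.982 in A2B5+ and 1.018, 1.05, 1.055 and 1.077 in GalC+. All GalC+ arrays were above all A2B5+ arrays, with A2B5+ replicate 2 far below its group. The difference was 0.25 ± 0.11 and did not pass alone (limma, adjusted p = 0.115); without A2B5+ replicate 2 it was 0.14. As the mean of both probe sets, Dicer1 was higher by 0.36 ± 0.09 (limma over 14217 genes, adjusted p = 0.00893).

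The partners of Dicer1 lay on opposite sides. Tarbp2, which stabilises Dicer1 and helps to load Argonaute, read 0.955, 0.933, 0.965 and 0.937 in A2B5+ and 1.035, 1.319, 1.093 and 1.091 in GalC+. All GalC+ values were higher, and GalC+ replicate 2 was the highest. Its difference of 0.25 ± 0.09 fell just short of the threshold (limma, adjusted p = 0.0533), and passed without GalC+ replicate 1 (0.0407), with quantile normalization (0.0425), with array weights (0.0393) and in the fit by gene (0.0389). Prkra, also known as PACT, is an activator of the antiviral kinase Eif2ak2 as well as a Dicer1 partner. It read 1.123, 1.298, 1.036 and 1.155 in A2B5+ and 0.9, 0.86, 0.964 and 0.897 in GalC+. It was lower in every GalC+ array, by 1.27-fold (log2 -0.35 ± 0.08, limma, adjusted p = 0.0131).

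Ago1 and Ago3 are Argonautes of closely related sequence whose genes are neighbours. In RefSeq (GRCr8) both lie on chromosome 5, on the same strand, with 1 locus between them, and Ago4 follows Ago1 with 0 loci between. Ago3 read 0.93, 0.942, 0.749 and 0.864 in A2B5+ and 1.058, 1.243, 1.111 and 1.476 in GalC+. Every GalC+ array was higher, and the gene was 1.40-fold higher (log2 0.48 ± 0.12, limma, adjusted p = 0.0138).

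Ago1 leaned lower in all 3 probe sets, by -0.28 ± 0.15, -0.27 ± 0.16 and -0.19 ± 0.11, and none passed (limma, adjusted p = 0.200, 0.242 and 0.215). Its GalC+ arrays were spread widely. In the first probe set (1374968_at) they read 0.899, 0.922, 0.649 and 1.113, against 1.099, 1.175, 1.005 and 0.995 in A2B5+. The second probe set (1375249_at) read 1.101, 1.06, 0.859 and 1.091 in A2B5+ and 1.112, 0.94, 0.684 and 0.729 in GalC+. GalC+ replicate 3 was the lowest array in each of the 3 probe sets. Without it the differences were -0.13, -0.16 and -0.11.

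Ddx20 read 1.048, 1.443, 1.176 and 1.465 in A2B5+ and 0.917, 0.952, 0.86 and 0.948 in GalC+. The A2B5+ arrays were spread, with replicates 2 and 4 high, and all were above the GalC+ arrays, which lay close together. The transcript was 1.38-fold lower in GalC+ (log2 -0.47 ± 0.11, limma, adjusted p = 0.0124). The lower cell cycle genes given above are of the same arrays as every member. Their part in the Ddx20 difference, as in the others, was not tested.

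**Figure D2:**
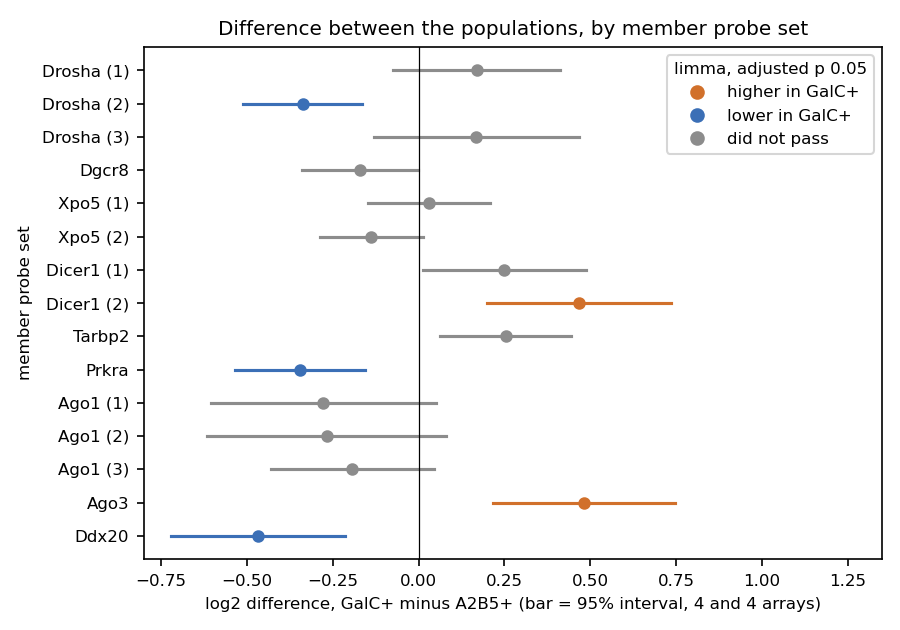
The log2 difference, GalC+ minus A2B5+, is shown for each of the 15 member probe sets with its 95% interval (horizontal axis), coloured by the outcome of the limma test. Ago3 at 0.48 and Dicer1 at 0.47 stand opposite Ddx20 at -0.47, Prkra at -0.35 and 1 Drosha probe set at -0.34.

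Members with related roles were then compared within each array, which shows unequal change and does not depend on how the arrays were centred. Of 6 pairs chosen by role, 4 could be run, and those with Ago2 could not. An exact two-sided permutation test over the 70 ways to assign 4 of the 8 arrays can go no lower than p = 0.0286. Each gene was the mean of its probe sets.

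The Argonaute pair moved apart most. Ago1 minus Ago3 was 0.20, 0.23, 0.35 and 0.25 in A2B5+ and -0.17, -0.37, -0.68 and -0.67 in GalC+. The populations did not overlap, with a shift of -0.73 ± 0.13 (exact permutation p = 0.0286, adjusted over the 4 pairs 0.0381). Ago3 alone already separated the populations, as given above, and no probe set of Ago1 passed. The p-value of this pair is therefore no further support. The Dicer1 partners shifted the other way. Tarbp2 minus Prkra was -0.23, -0.48, -0.10 and -0.30 in A2B5+ and 0.20, 0.62, 0.18 and 0.28 in GalC+, and the populations did not overlap. That shift was 0.60 ± 0.13 (exact permutation p = 0.0286, adjusted 0.0381). Tarbp2 was higher and Prkra lower in every GalC+ array, as given above. The separation of this pair, and so its p-value, followed from those values and is no further support.

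For the RNase III enzymes, Drosha minus Dicer1 ran from -0.01 to 0.27 in A2B5+ and from -0.30 to -0.05 in GalC+. The shift was -0.36 ± 0.08 (exact permutation p = 0.0286, adjusted 0.0381). The mean difference of Drosha was 0.00, from probe sets that went different ways, and that of Dicer1 was 0.36. The shift is thus the Dicer1 difference given above with its sign turned, and no further support. The subunits of the Microprocessor overlapped: Drosha minus Dgcr8 ran from -0.29 to 0.01 in A2B5+ and from -0.03 to 0.17 in GalC+, a shift of 0.17 ± 0.08 that did not pass (exact permutation p = 0.0571, adjusted 0.0571). With the most variable probe set of each gene in place of the mean, the adjusted p was 0.0571 for the Argonaute pair and for the Dicer1 partners, and 0.200 for Drosha minus Dicer1.

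**Figure D3:**
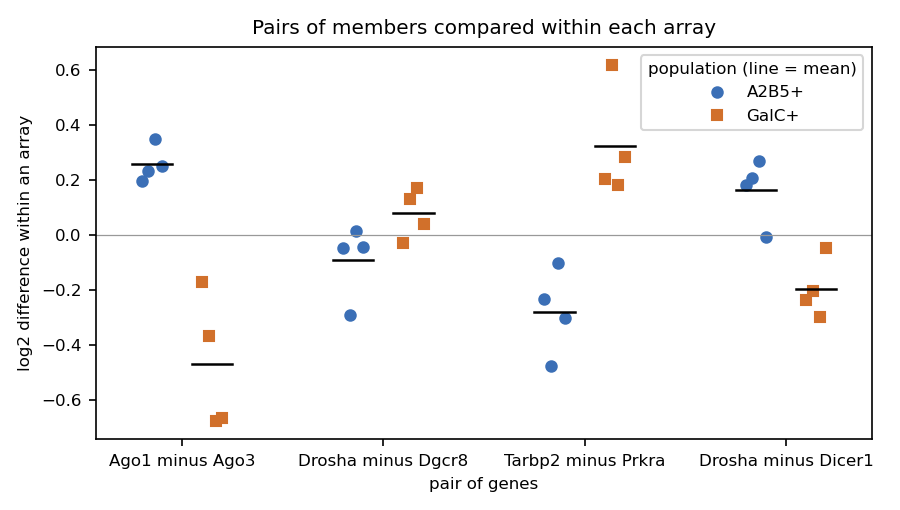
The difference of a pair of members on each array (vertical axis, log2) is plotted for 4 A2B5+ arrays (circles) and 4 GalC+ arrays (squares), with a line at each mean. Ago1 minus Ago3 and Drosha minus Dicer1 lie lower in GalC+ without overlap, Tarbp2 minus Prkra lies higher without overlap, and Drosha minus Dgcr8 overlaps.

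The 250 bases before the RefSeq start are shown for the Argonaute pair and for the Dicer1 partners, each a pair from 1 protein family, so that their upstream sequences can be set side by side (RefSeq, GRCr8). They are chr5:144041625-144041874 for Ago1, chr5:143998738-143998987 for Ago3, chr7:135527460-135527709 for Tarbp2 and chr3:82001526-82001775 for Prkra. The Tarbp2 stretch is from the plus strand and the others are from the minus strand. Capitals mark GC boxes (GGGCGG, or CCGCCC on the other strand), bound by Sp1 and KLF factors, and CCAAT boxes (CCAAT or ATTGG), bound by NF-Y.
Ago1: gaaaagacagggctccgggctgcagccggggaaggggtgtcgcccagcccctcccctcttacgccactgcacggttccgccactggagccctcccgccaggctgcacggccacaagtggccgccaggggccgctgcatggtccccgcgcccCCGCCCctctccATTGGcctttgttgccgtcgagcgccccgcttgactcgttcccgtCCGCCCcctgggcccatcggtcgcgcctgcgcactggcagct
Ago3: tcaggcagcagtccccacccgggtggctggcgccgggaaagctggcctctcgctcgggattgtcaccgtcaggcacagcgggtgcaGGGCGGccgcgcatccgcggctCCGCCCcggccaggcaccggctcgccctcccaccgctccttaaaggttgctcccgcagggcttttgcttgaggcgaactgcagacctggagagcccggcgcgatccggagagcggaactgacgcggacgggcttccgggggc
Tarbp2: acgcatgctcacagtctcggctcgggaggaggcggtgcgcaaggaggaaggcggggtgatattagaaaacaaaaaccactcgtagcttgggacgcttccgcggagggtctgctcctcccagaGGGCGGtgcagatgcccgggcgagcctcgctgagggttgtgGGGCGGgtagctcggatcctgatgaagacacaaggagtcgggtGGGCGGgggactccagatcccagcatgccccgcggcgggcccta
Prkra: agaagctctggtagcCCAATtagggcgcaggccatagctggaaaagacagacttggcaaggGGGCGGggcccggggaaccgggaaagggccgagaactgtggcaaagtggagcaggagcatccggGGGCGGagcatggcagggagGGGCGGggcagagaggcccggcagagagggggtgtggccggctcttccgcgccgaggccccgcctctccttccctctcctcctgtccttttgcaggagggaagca
Ago1 and Ago3 each held 2 GC boxes, and Tarbp2 and Prkra 3 each. Ago1 and Prkra held 1 CCAAT box, and Ago3 and Tarbp2 held 0.

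Upstream sequences were found for 9 of the 10 genes, all but Ago2. They were rich in G and C, from 56.8% in Ddx20 to 72.8% in Ago1, where the median of 33469 rat promoters of the same length was 51.2%. A GC box stood in 7 of the 9, against 30.5% of all promoters, and a CCAAT box in 6, against 34.0%. Searched on both strands, the ETS site CCGGAAG was in Drosha and Ago3 (7.27% of all) and the E2F site TTCCCGC in Ddx20 (3.36%). The E-box CACGTG was in Dgcr8 (5.59%) and the Sox site ACAAAG in Ago1 (16.3%). The Myrf site CTGGCAC and the Olig E-box CAGCTG were in 0 of these 9 windows (3.78% and 12% of all). Matches of letters do not show that a factor binds there.

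Outside the members, 98 genes of the same pathway and of the complexes that share its proteins were listed by step, and 86 were measured by 149 probe sets. Of these, 13 passed as higher in GalC+ and 25 as lower, 25.5% in all beside 26.8% of all probe sets. Their median difference was -0.09, beside 0.04. The list of nuclear cofactors of processing had 2 of 32 probe sets higher and 7 lower, 28.1% in all beside the same 26.8%. Adarb1, an enzyme that edits adenosine in double-stranded RNA, was higher by 0.85 ± 0.11, with 0.53 and 0.15 in its other probe sets. Khsrp, which binds the loops of some microRNA precursors, was lower in 1 of its 3 probe sets, by -0.86 ± 0.20; the others read 0.07 and -0.12. Hnrnpa1, a further loop-binding protein, was lower by -0.65 ± 0.13, and its other probe sets read -0.14 and -0.35.

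Export by Xpo5 needs the GTPase Ran, and both Rcc1 and Rangap1, regulators of Ran, were lower. Rcc1, which charges Ran with GTP in the nucleus, differed by -0.77 ± 0.12, and Rangap1, which ends the cycle in the cytoplasm, by -0.66 ± 0.10 in 1 of its 2 probe sets (the other 0.07). Ran itself (-0.15 ± 0.07) and Ranbp1 (-0.03 ± 0.07) did not pass (limma, adjusted p = 0.171 and 0.803). In the export and import list 3 of 13 probe sets were lower and 0 higher (limma, adjusted p under 0.05). That is 23.1%, beside 26.8% of all probe sets.

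Among partners of the silencing complex 5 of 30 probe sets were higher and 2 lower, 23.3% in all beside 26.8% of all probe sets. Ajuba, a LIM protein of processing bodies, was higher by 0.79 ± 0.12 (other probe set 0.24). Fxr1, an RNA-binding relative of the fragile X protein, was higher by 0.37 ± 0.12 in 1 of 3, while the others read 0.05 and -0.34. Fkbp5, a co-chaperone of Hsp90, was lower by -0.80 ± 0.16 (other probe set -0.21), and Trim32, a ubiquitin ligase found with Argonaute in neural progenitors, by -0.57 ± 0.09. The deadenylation and decapping genes, which silence and destroy targets, were the quietest list: 1 of 33 probe sets was higher and 3 were lower, 12.1% in all. Patl1, a decapping factor, was higher by 0.36 ± 0.09 (its others 0.03 and 0.19). The deadenylase Cnot6 was lower by -0.41 ± 0.08 (its others -0.35 and -0.02) and the decapping scaffold Edc4 by -0.22 ± 0.07.

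Of 15 probe sets for tailing and turnover of small RNAs, 2 were higher and 3 lower, 33.3% in all beside 26.8% of all probe sets. Translin (Tsn) and its partner Tsnax form a nuclease that helps to load Argonaute. They moved oppositely, with Tsn at -0.41 ± 0.10 and Tsnax at 0.35 ± 0.09; the other Tsnax probe set, at 0.70, did not pass. Tent2, a poly(A) polymerase that tails microRNAs, was higher by 0.45 ± 0.14 (other probe set 0.08), and the nuclear exonuclease Xrn2 was lower by -0.56 ± 0.15 (other probe set -0.42).

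Ddx20 also sits in the SMN complex. Of 14 probe sets of the other genes of that complex and its cargo, 3 were higher and 1 lower. That is 28.6%, beside 26.8% of all probe sets. Gemin2, which holds the Sm proteins, was higher by 0.48 ± 0.13, and the Sm protein Snrpd1 by 0.50 ± 0.13 (other probe set 0.37). Snrpd3, also an Sm protein, was lower by -0.35 ± 0.11. The difference between Ddx20 and these genes was not tested. In the list of other double-stranded RNA binding proteins, 6 of 12 probe sets were lower and 0 higher. That is 50.0%, beside 26.8% of all probe sets, and the median was -0.32, beside 0.04 over all probe sets. The lower ones came from 4 of the 7 genes measured, and the Stau2 probe sets at -1.01, -0.94 and -0.40 were among them. Stau2, which carries transcripts along neuronal processes, was lower by -1.01 ± 0.20; its others read -0.94, -0.21 and -0.40. Strbp was lower by -0.74 ± 0.21 (other probe set -0.29). Stau2 is expressed by neurons, and their markers were also lower in these GalC+ arrays; the part of that in its difference was not tested.

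**Figure D4:**
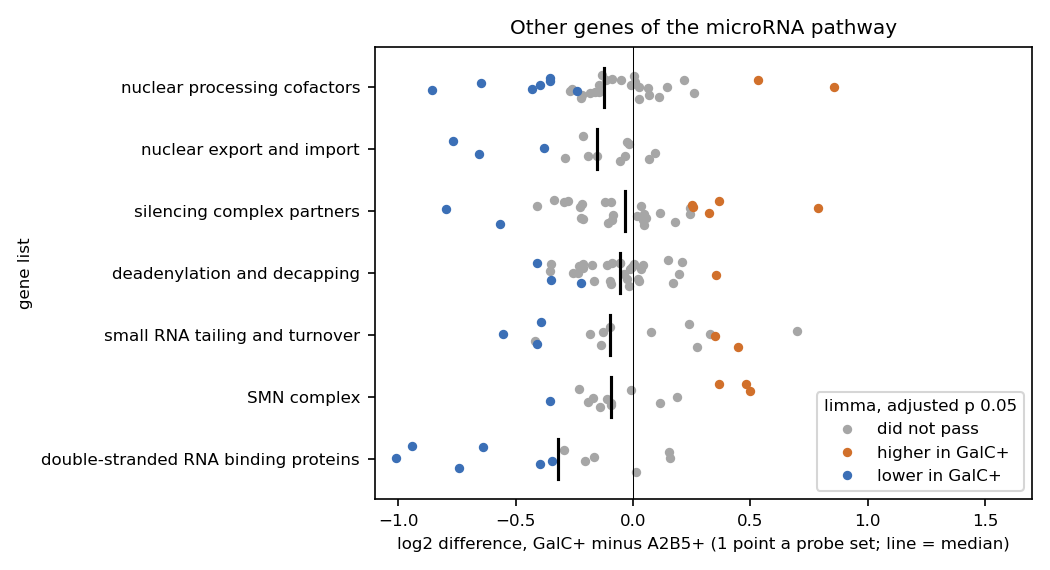
The log2 difference, GalC+ minus A2B5+, of 149 probe sets (points) is shown for 7 lists of other pathway genes, with a line at each median and colours for the outcome of the limma test. The list of double-stranded RNA binding proteins (12 probe sets of 7 genes) has the lowest median, -0.32, beside 0.04 over all probe sets. The deadenylation and decapping list has the fewest called for its size.

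The transcripts whose values over the 8 arrays lay nearest to a called member were found by the root mean square difference of log2 ratios. Prkra lay nearest to the cohesin gene Rad21 (0.035) and to Dync2i1 (0.039). The called Drosha probe set lay nearest to a probe set of Hnrnpa1 (0.051) and to Dhrsx (0.054). Dicer1 lay nearest to the sorting nexin Snx1 (0.056) and to Sh3glb2 (0.073), Ago3 to the transcription factor Zeb2 (0.074) and the calcineurin subunit Ppp3ca (0.076), and Ddx20 to Casp2 (0.074) and Nrf1 (0.076). These distances describe likeness over 8 arrays and nothing more.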

How the data were processed

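RNA of A2B5+ and GalC+ cells was measured on 1-colour Affymetrix arrays, 4 per population. Per the submitters' processing notes RMA summarised the signals (version not stated). The deposited values are linear ratios of a probe set's signal to its median over the 8 arrays; this is read from the values, since every row has a median of 1 within 0.0005. The division removes the level, so signal over background could not be judged, and folds near background are compressed.

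The ratios were log2 transformed with no pseudocount. After leaving out 57 control probe sets, 31042 were fitted with limma 3.58.1 in R 4.3.3 by lmFit and eBayes; two-sided p-values were adjusted over all of them by Benjamini-Hochberg, with a threshold of 0.05. Genes were named by the platform's annotation; the gene IDs of all 15 member probe sets carry the same symbols in RefSeq. Replicates are separate litters; a litter shared between populations is not stated, nor is a batch. The fit was tested on simulated data. The members, pairs, lists and markers were chosen with earlier results of these data known. In the wider lists, up to 2 largest rises and 2 largest falls past the threshold were named per list, and for each called member its 2 nearest genes. Alternatives were a replicate block, median centring, quantile normalization, a Welch statistic, a trended and robust prior, array weights, an adjusted p under 0.01, 1 averaged value per gene, and leaving out each array.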

Additional observations from a re-analysis of the deposited data

Results flagged for a closer look

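In 4 of the 30 groups of 4 values (15 member probe sets in 2 populations), 1 array lay far from the rest, with a gap to its nearest neighbour, as a share of the group's range, above Dixon's critical value; chance gives this in about 1 of 20 groups. All 4 were A2B5+ groups. In the first Dicer1 probe set, A2B5+ replicate 2 had a ratio of 0.703, and the others had 0.935 to 0.982. In the first Xpo5 probe set, A2B5+ replicate 3 had 0.891, and the others 0.997 to 1.003. In the second Ago1 probe set, A2B5+ replicate 3 had 0.859, and the others 1.06 to 1.101, and in the third (1382879_at) A2B5+ replicate 2 had 1.089, and the others 0.998 to 1.006. None of these probe sets passed the test with all arrays, and none passed with that array left out.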

How the results depend on the processing

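Of 240 refitted values of single member probe sets, 222 kept their direction and their side of the threshold. A further 10 lost the call with their sign kept, 5 gained it and 3 changed sign. The 10 losses were all of the 5 probe sets called in the main fit. The 10 probe sets not called there count as kept where they again did not pass, and they make up most of the 222. The called Drosha probe set is counted as a sign change. As the gene's mean it became 9.49e-07, practically no difference, and it lost the call as well. The other sign changes were of the first Xpo5 probe set (-0.054 as the gene's mean, and from -0.011, without A2B5+ replicate 3, to 0.066 with 1 array left out). Of the 2 higher and 3 lower members, 1 higher remained with a trended and robust prior (the Dicer1 call was lost, adjusted p = 0.0579). A Welch statistic, which takes the spread of each probe set alone, left 0 higher and 1 lower (Drosha) among members, and 3 higher and 13 lower in the wider lists; it called 14.2% of all probe sets. At an adjusted p under 0.01 the members had 0 higher and 1 lower, and the wider lists 2 and 12. By gene the members had 3 higher and 2 lower. Leaving out 1 array gave 1 to 3 higher and 3 lower members. In the wider lists it gave 5 to 16 higher (5 without GalC+ replicate 2, 6 without A2B5+ replicate 1 or 4, and 7 without A2B5+ replicate 2) and 20 to 27 lower.

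The pair differences kept their direction in every alternative run. With the most variable probe set the shifts were -0.75 for Ago1 minus Ago3, 0.60 for Tarbp2 minus Prkra and -0.30 for Drosha minus Dicer1. Without 1 array they ran from -0.83 to -0.66, from 0.50 to 0.66 and from -0.42 to -0.32, and the adjusted p rose to at most 0.0571, 0.0571 and 0.0762. It was above 0.05 when A2B5+ replicate 2 or 3 or GalC+ replicate 1, 2 or 3 was left out. The adjustment covers the 4 pairs together, and 7 arrays allow few assignments. With the replicate number as a block, the members kept 2 higher and 3 lower, and the wider lists had 11 and 28. The labels do not say that a number marks a shared litter. Deviations of same-numbered arrays correlated at 0.40, 0.09, 0.30 and 0.17, and 6 of 8 arrays matched best with their own number. This is a hint of a shared factor from the data, but it was not seen in every pair, and the main tests take the arrays as separate. A block by exact sign flips within a number, added after seeing the data, left the shifts of the pairs at -0.73, 0.60 and -0.36, each in the same direction in 4 of 4 numbers, with an exact adjusted p of 0.125; 4 numbers cannot give less than 0.125, so this test could not pass. Median centring and quantile normalization gave 9 and 11 higher, and 29 and 30 lower, in the wider lists. Signal over background is unknown, which limits what a small difference can show.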
